A study of Mus musculus with 4 samples.

Results

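Collagen genes were followed through 4 spatial transcriptome sections of mouse tissue. Members were taken by name: every gene symbol made of Col, a number, a and a number, which found 44 of the 32285 genes listed. A section titled embryonic esophagus, of tissue labelled mouse embryo, came from each of the embryonic days E13.5 and E16.5. Dissected esophagus of newborns (P0) gave 2 more, replicates 1 and 2. All animals were wild type and untreated, and tissue was cut at 8 µm onto Visium slides, whose barcoded spots each capture RNA from several neighbouring cells. The series asks about progenitors of esophageal epithelium and muscle; the collagens bear on the matrix and basement membranes around both. The labels name no animal behind a section, so p-values between P0 regions rest only on how region differences varied between these sections. For each gene that spread was drawn towards the spread of all genes tested.

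Collagens are secreted or membrane-bound proteins built on a triple helix of alpha chains. Fibrillar collagens form the load-bearing fibrils of connective tissue, cartilage and bone, and FACIT collagens (fibril-associated collagens with interrupted triple helices) sit on fibril surfaces. Type IV forms the sheet-like network of basement membranes, type VI forms beaded filaments around cells, type VII anchors basement membranes of stratified epithelia to the stroma, and type XVII is a transmembrane component of hemidesmosomes. In the esophagus these matrices lie below the epithelium, in the lamina propria and between muscle bundles. By class the members were 11 fibrillar, 9 FACIT, 6 type IV, 6 type VI, 4 transmembrane, 3 hexagonal network (types VIII and X), 2 multiplexin and 1 type VII genes, with 2 others (types XXVI and XXVIII).

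Promoter sequence was available for 35 of the 44 genes (RefSeq, GRCm38.p6, the build that mm10 names). The windows below end at the base before the transcript start and are shown for genes on which the results turn: a pair of abundant fibril genes, both genes of the epithelial attachment, and a cartilage gene. Letters are 5′ to 3′ on the gene's strand, and capitals mark, on either strand, the CCAAT box (the letters CCAAT), the GC box (the letters GGGCGG) or the TATA box (the letters TATAAA).
Col1a2 (chr6:4505368-4505617, plus strand): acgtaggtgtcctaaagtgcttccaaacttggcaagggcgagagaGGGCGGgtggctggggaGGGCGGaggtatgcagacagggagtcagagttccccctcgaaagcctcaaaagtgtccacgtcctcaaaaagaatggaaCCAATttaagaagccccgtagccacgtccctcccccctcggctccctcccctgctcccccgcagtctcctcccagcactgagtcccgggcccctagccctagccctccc
Col3a1 (chr1:45311288-45311537, plus strand): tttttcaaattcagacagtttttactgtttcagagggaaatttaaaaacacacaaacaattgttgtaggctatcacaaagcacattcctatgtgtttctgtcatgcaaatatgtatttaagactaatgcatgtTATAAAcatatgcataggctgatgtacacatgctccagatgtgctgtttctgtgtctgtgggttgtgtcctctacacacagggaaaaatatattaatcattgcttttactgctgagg
Col17a1 (chr19:47692043-47692292, minus strand): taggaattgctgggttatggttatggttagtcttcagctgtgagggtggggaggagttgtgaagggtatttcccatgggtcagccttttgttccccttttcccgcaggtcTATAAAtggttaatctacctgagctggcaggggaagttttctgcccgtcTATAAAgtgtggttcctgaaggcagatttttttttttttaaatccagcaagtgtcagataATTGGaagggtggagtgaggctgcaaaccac
Col7a1 (chr9:108953336-108953585, plus strand): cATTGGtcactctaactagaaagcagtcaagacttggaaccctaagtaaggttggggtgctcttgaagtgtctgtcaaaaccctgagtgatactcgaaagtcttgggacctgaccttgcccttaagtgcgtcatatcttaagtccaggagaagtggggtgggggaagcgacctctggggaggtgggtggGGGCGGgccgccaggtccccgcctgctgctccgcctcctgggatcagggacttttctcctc
Col9a2 (chr4:121039316-121039565, plus strand): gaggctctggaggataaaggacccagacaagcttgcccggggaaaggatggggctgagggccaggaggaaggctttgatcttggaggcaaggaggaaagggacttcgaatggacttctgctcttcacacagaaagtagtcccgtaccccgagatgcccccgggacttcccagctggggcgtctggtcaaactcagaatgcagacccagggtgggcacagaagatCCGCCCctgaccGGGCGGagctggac

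Over these 250 bases GGGCGG was present in 21 of 35 collagen genes (60%), against 32.7% of 32851 promoter windows. CCAAT was present in 13 (37.1%, against 33.8%) and TATAAA in 5 (14.3%, against 12.4%). A match describes the letters alone. A collagen gene was counted if any of its windows held the letters, whereas the other share is over single windows. The units thus differ, and the difference was not tested. Several members are neighbours. Col4a2 and Col4a1 encode both chains of the common type IV network. The transcript starts used for their promoter windows lie 21 bases apart on opposite strands (chr8:11312805-11312826). The annotated Col4a1 gene reaches further, to 11312889. The bases from one transcript start used to the other, on the plus strand, are shown because both genes are later seen to vary together. They hold a GC box, in capitals. Col4a2, on the plus strand, has the lower start, so the annotated genes overlap and the bases shown lie inside both.
Col4a2 to Col4a1: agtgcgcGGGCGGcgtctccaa
Col4a5 and Col4a6, chains of other type IV networks, have such transcript starts 1343 bases apart on chromosome X, and the annotated genes leave a gap of 1275 bases. Col6a6, Col6a5 and Col6a4 follow one another on chromosome 9 with gaps of 27.8 and 27.9 kb, and Col3a1 lies 24.6 kb from Col5a2 on chromosome 1.

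Spots with at least 500 unique molecular identifiers (UMIs, each a captured transcript, so levels need no division by gene length) were kept: 3220 at E13.5, 3588 at E16.5, 363 in P0 replicate 1 and 264 in replicate 2. They held 98643829, 105834164, 10260709 and 7356008 UMIs, with medians of 25465 to 29289 per spot. At least 20 UMIs were counted for 41, 43, 34 and 34 of the 44 collagens. Levels are counts per 1000000 UMIs (CPM), summed over spots. With a single section for each embryo stage, no test was made across stages, and stage and dissection change together and cannot be told apart. In any sum, fewer cells of a type and less RNA per cell cannot be told apart. The P0 sections held all 10 epithelial, 6 smooth muscle and 8 striated muscle markers, whereas the cartilage list summed to 3.22 and 2.72 CPM with 6 and 4 of its 8 genes at 0 (398.7 and 186.3 CPM at E13.5 and E16.5).

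Collagens made up 0.719% of UMIs at E13.5, 1.37% at E16.5, and 1.12% and 1.15% in the P0 sections. Fibrillar collagens stood at 4957 CPM at E13.5, 10426 at E16.5, and 7933 and 8228 in P0, a P0 mean of 8080 ± 208 (SD, n = 2). They held 71.2% ± 0.822 of collagen UMIs in P0 (SD, n = 2), followed by type VI with 11% ± 0.757 and type IV with 8.69% ± 0.590. The P0 sections lay close to each other in these classes.

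The type I chains, the main fibril collagen of skin, bone and tendon, were lowest at E13.5. Col1a1 was at 778, 2909, 1990 and 2091 CPM at E13.5, E16.5 and in P0 replicates 1 and 2, and Col1a2 at 989, 2909, 1815 and 1932. From E13.5 to E16.5 Col1a1 was 3.74 times as high (counting interval 3.71 to 3.77). Col3a1, of the fibrils of distensible tissues, was at 1401, 2718, 3541 and 3566 CPM, and here the P0 sections were the highest. Col5a3, a minor fibril chain, was at 2.17, 54.5, 23.1 and 37.9 CPM. Its ratio of 25.1 from E13.5 to E16.5 (21.9 to 28.9) was the highest of the 43 members with a UMI at both embryonic stages.

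Several collagens of cartilage were far lower in P0 than in the embryo sections. Col2a1, the main cartilage fibril chain, was at 943 and 688 CPM in the embryo sections and had 1 and 2 UMIs in the P0 sections. Col9a1, which coats type II fibrils, was at 178, 67.9 and 0.292 CPM in the first 3 sections. In P0 replicate 2 it had 0 UMIs, with a counting interval up to 0.501 CPM. Col9a3 was at 272, 128, 1.27 and 1.90 CPM. Both P0 sections were low in these members, beside the near-absent cartilage markers given above. Other chains of the same fibrils were still counted in P0: Col9a2 was at 164.9, 74.0, 7.50 and 10.3 CPM (77 and 76 UMIs in P0) and Col11a1 at 230, 151, 27.6 and 23.2 CPM. Col10a1, of hypertrophic cartilage, had 630 UMIs at E16.5 (5.95 CPM) and 0 in the other 3 sections.

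Members of the epithelial attachment were highest in P0. Col17a1 was at 2.53, 5.58, 237 and 285 CPM, a P0 mean 46.7 times the E16.5 level. Col7a1 was at 6.80, 15.1, 50.8 and 58.7 CPM. Both P0 sections lay above both embryo sections for each gene, and the epithelial list moved with them, from 188.7 and 614.2 CPM in the embryo sections to 11535 and 11852 CPM in P0. The part of that list in the difference was not tested.

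Within the network classes the chains differed in their order. Col4a1 was at 249.5, 494, 553 and 516 CPM, and Col4a2 at 154, 281, 308 and 289, with E13.5 lowest for both. Col4a5 was level in the embryo sections (25.3 and 25.1 CPM) and stood at 122 and 108 in P0, and Col4a6 ran from 8.04 and 7.43 to 37.9 and 34.5. In type VI, Col6a3 was highest at E16.5 (169, 477, 276 and 251 CPM), whereas Col6a5 was highest in P0 (1.90, 5.47, 41.2 and 55.1). Col6a4, 1.20 and 1.42 CPM in the embryo sections, was at 12.8 and 11.01 in P0. Of the remaining classes, the FACIT genes summed to 940, 919, 347 and 390 CPM, the multiplexins (Col15a1 and Col18a1, of basement membrane zones) to 160, 185, 218 and 227, and types VIII and X to 75.7, 79.5, 86.8 and 78.2. Col26a1 stood at 120 CPM at E13.5, 37.9 at E16.5, and 7.02 and 12.8 in P0.

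**Figure D1:**
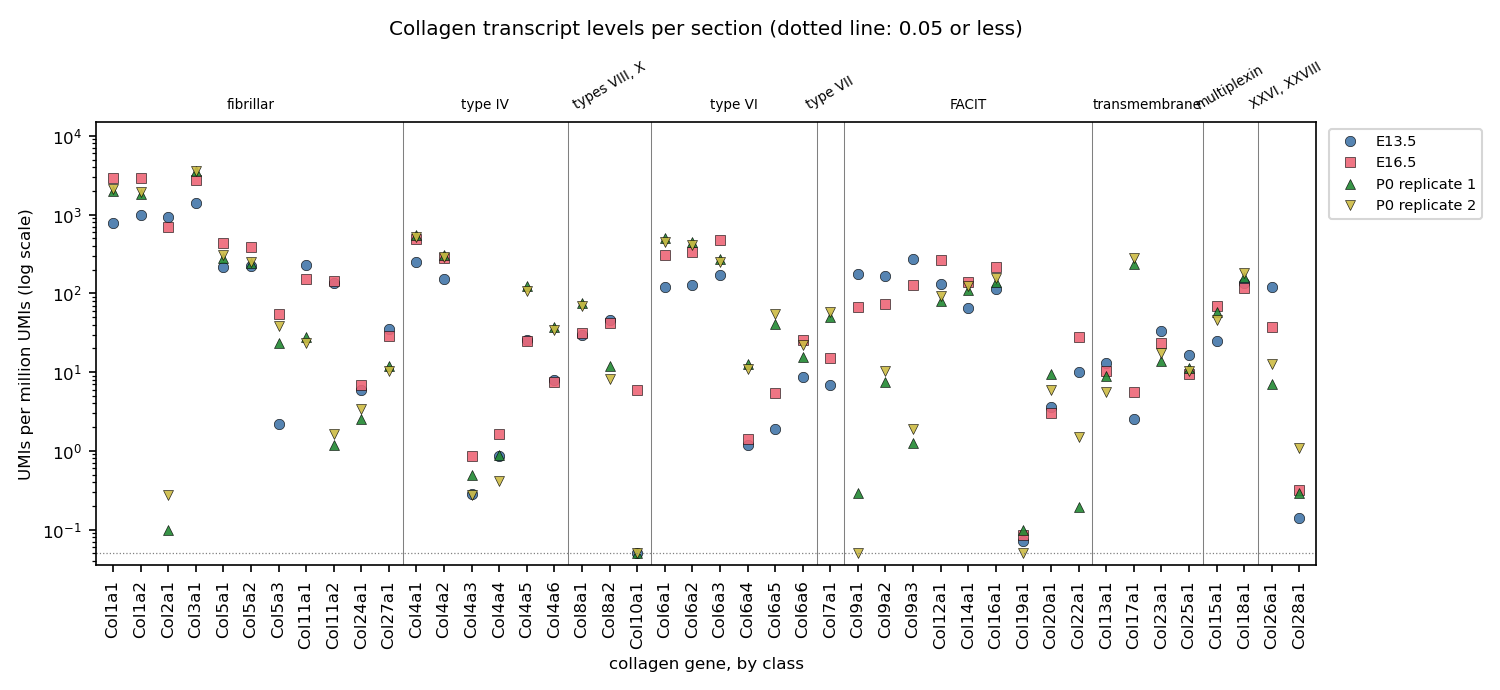
Level of each of the 44 collagens in each section, in CPM on a log scale, grouped by class; points at the dotted line are at 0.05 or less. Col2a1, Col9a1 and Col9a3 lie far lower in both P0 sections than in the embryo sections, and Col17a1 far higher.

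Where the collagens lay in the embryo sections was read from spots with the highest marker scores. A score is the mean over a list's markers of log(1 + UMIs per 10000), no collagen is a marker, and the highest 2% of spots by each list were set apart, each spot in 1 list. These spots are mixtures, and their ratios to all other spots of the section are descriptions of a single section. Collagens made up 5.18% and 7.96% of UMIs in cartilage-rich spots at E13.5 and E16.5, 7.43% in bone-rich spots at E16.5, and 0.183% and 0.267% in neuron-rich spots, the lowest of all regions at both stages.

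Cartilage-rich spots were led by type II, IX and XI chains at both stages. Col2a1 reached 24094 CPM at E13.5, 29.6 times the rest of the section, and 29952 CPM at E16.5, 55.2 times the rest. Col11a2, which joins type II in cartilage fibrils, stood at 4203 and 4124 CPM, ratios of 37.3 and 32.9. The 3 type IX genes were 21.7 to 24.8 times the rest at E13.5 and 32.1 to 41.3 times at E16.5. These spots were shallow, with medians of 7152 and 6663.5 UMIs, and the part of depth was not tested.

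Bone-rich spots at E16.5 combined Col1a1 at 31702 CPM (12.4 times the rest) with Col10a1 at 143 CPM (33.6 times) and Col22a1, known from tissue junctions, at 591 CPM (28.1 times). Col11a2 and the transmembrane Col13a1 were also high, at 14.8 and 12.8 times the rest. At E13.5, where 4 of the 8 bone markers reached 20 CPM, the leading genes were Col22a1 (159 CPM, 21.2 times) and the fibrillar Col24a1 (69.2 CPM, 14.4 times). Col22a1 was thus among the leading 2 members of bone-rich spots at both stages.

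Tendon-rich spots differed between the stages. At E13.5 they were led by Col2a1 at 9704 CPM (11.7 times the rest), and their cartilage markers summed to 3120.0 CPM; Col14a1, a FACIT of dense connective tissue, was 8.54 times the rest. At E16.5 their cartilage markers summed to 759 CPM and Col22a1 (7.30 times), Col11a1 (6.33 times) and Col12a1 (1389 CPM, 5.59 times) led. Col12a1 is a FACIT of tendon and ligament. The difference between stages was not tested.

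In stroma-rich spots Col3a1 was at 5776 CPM (4.36 times the rest) in the E13.5 section, against 10725 CPM (4.15 times) at E16.5. Col6a6 was 7.94 times the rest at E13.5, and Col5a3 4.46 times at E16.5. Endothelium-rich spots at E13.5 were led by basement membrane genes: Col4a1 at 1249 CPM (5.41 times), Col18a1, the source of endostatin, at 651 CPM (5.20 times) and Col4a2 at 733 CPM (5.13 times). At E16.5 the first 2 places went to Col4a3 and Col4a4, chains of specialised basement membranes, on 20 and 29 UMIs (23.4 and 16.53 times the rest).

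Epithelium-rich spots were led by Col17a1 at both stages, at 61.8 CPM (37.6 times the rest) and 92.7 CPM (22.1 times). Col7a1 stood at 62.5 and 155 CPM there, 10.5 and 12.0 times the rest. At E13.5 Col7a1 was second and Col26a1 followed at 2.17 times. At E16.5 Col6a4 (22.0 times, on 39 UMIs) and Col6a5 (18.3 times) stood between Col17a1 and Col7a1. At E13.5 those type VI genes were instead the leaders of smooth muscle-rich spots, where Col6a5 was at 36.1 CPM (31.7 times), Col6a4 at 17.8 CPM (21.5 times) and Col6a6 at 55.3 CPM (7.33 times). Col6a5 still led smooth muscle-rich spots at E16.5, at 60.7 CPM (12.7 times).

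In striated muscle-rich spots Col22a1 was 4.82 times the rest at E13.5, and Col6a6 2.78 times at E16.5. Glia-rich spots at E13.5 were led by Col20a1, a FACIT, at 29.9 CPM (9.71 times). Heart-rich spots were led by Col4a5 at both stages, at 95.5 CPM (4.0 times) and 56.0 CPM (2.35 times). In neuron-rich spots at E13.5 no member with 20 UMIs there reached the level of the rest, and in liver-rich spots at E13.5 only Col13a1 did (1.19 times).

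Several ratios depended on the share of spots set apart. In bone-rich spots Col22a1 at E13.5 was 36.9 times the rest with the highest 1% of spots and 12.0 times with 5%, and Col10a1 at E16.5 was 17.98 and 53.2 times, with Col22a1 leading at 1%. With 5% of spots at E13.5, Col17a1 in epithelium-rich spots was 20.7 times the rest and Col6a5 in smooth muscle-rich spots 19.7 times. The leading member also changed elsewhere. Endothelium-rich spots were led at 1% by Col18a1 at E13.5 and by Col13a1 at E16.5, where Col4a3 was 14.4 times the rest at 5%. Tendon-rich spots at E16.5 were led at 5% by Col12a1, striated muscle-rich spots at E13.5 by Col20a1 at both shares, and stroma-rich spots at E16.5 by Col6a5 at 1% and Col3a1 at 5%. In liver-rich spots at E13.5 Col18a1 led at 1%.

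**Figure D2:**
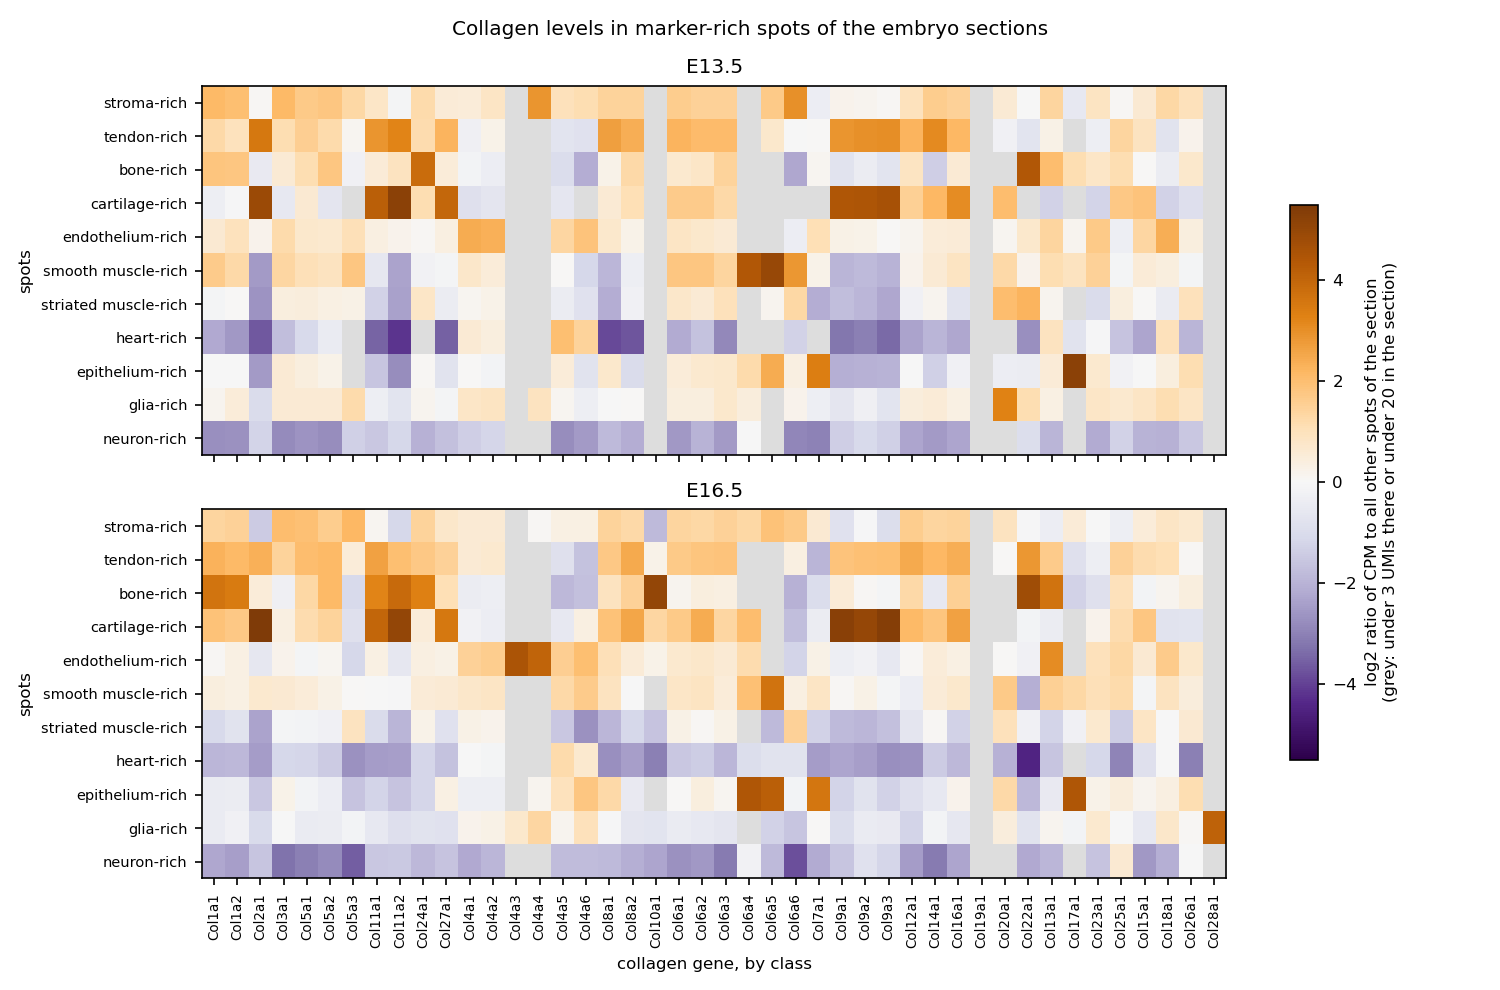
Log2 ratio of CPM in marker-rich spots (rows) to all other spots of the section for each collagen (columns), at E13.5 above and E16.5 below; grey marks too few UMIs. The type II, IX and XI genes stand out in cartilage-rich spots and Col17a1 and Col7a1 in epithelium-rich spots at both stages, while neuron-rich and heart-rich spots are low for most members.

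**Figure D3:**
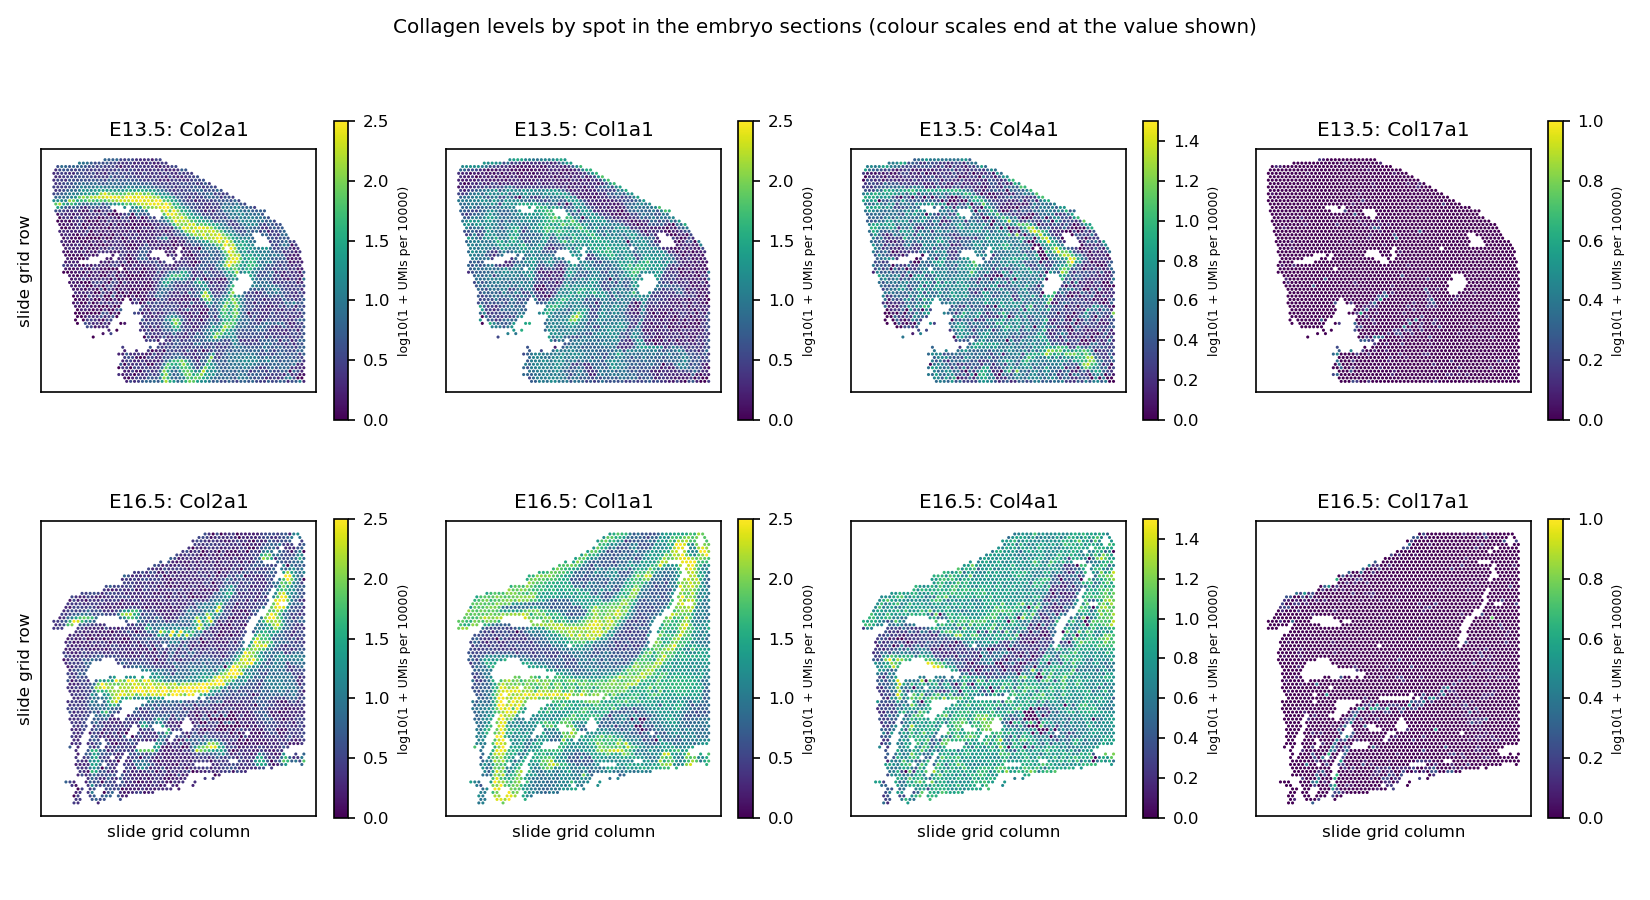
Level per spot, as log10(1 + UMIs per 10000), of Col2a1, Col1a1, Col4a1 and Col17a1 over the grid of the E13.5 section (above) and the E16.5 section (below). Col2a1 is gathered in bands and patches, Col1a1 is higher at E16.5 (2909 against 778 CPM), Col4a1 is spread over most of both sections, and Col17a1 is limited to few spots.

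Tissue preference was also described by Spearman correlation over the kept spots of each section between a collagen and each marker score. Spots share a library, a slide and its range of depth and are not replicates, so rho carries no p. It was computed for members with a UMI in at least 10% of spots: 34 at E13.5, 36 at E16.5 and 33 in each P0 section. The stroma list was the closest list for 21, 14, 16 and 18 of these. Col3a1 had the highest rho of any member in every section, 0.856, 0.885, 0.945 and 0.931 with stroma. The cartilage list was closest for 6 members at E13.5 and 5 at E16.5, with Col2a1 at 0.751 and 0.697 and Col9a1 at 0.676 and 0.554.

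Some type IV and VI genes changed lists between sections. Col4a1 was closest to endothelium at E13.5 (0.618), to stroma at E16.5 (0.550, with endothelium at 0.546) and to smooth muscle in P0 (0.845 and 0.762, with stroma at 0.839 and 0.746). Its change at E16.5 depended on the measure. By Pearson correlation endothelium was ahead of stroma there (0.562 against 0.555), and also given each spot's total UMIs (0.557 against 0.549). Its partner Col4a2 was closest to smooth muscle in P0 replicate 1 (0.826) and to stroma in replicate 2 (0.763). Col6a3 was closest to stroma in the embryo sections (0.722 and 0.738) and to smooth muscle in P0 (0.854 and 0.761). In P0 its rho with stroma was nearly as high, at 0.796 and 0.752. Col6a1 (0.716, 0.747, 0.861 and 0.779) and Col6a2 (0.735, 0.736, 0.891 and 0.864) were closest to stroma in each of the 4 sections. Smooth muscle was the closest list for 11 members in replicate 1 and 6 in replicate 2.

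Col17a1 and Col7a1 were the members closest to epithelium in P0. Col17a1 had rho of 0.648 and 0.642 with epithelium and −0.493 and −0.362 with smooth muscle. Col7a1 had weaker values of 0.184 and 0.347 with epithelium. Col3a1 in turn was at −0.753 and −0.661 with epithelium. Col26a1 was closest to striated muscle in replicate 1 (0.364), and in replicate 2 its rho with striated muscle was 0.375 beside 0.382 with the liver list. A share of these preferences was weak: the highest rho stayed below 0.3, a limit chosen after the correlations were seen, for 7 of 34, 10 of 36, 10 of 33 and 7 of 33 members.

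Chains that assemble together varied together to different degrees. Col1a1 and Col1a2 had rho of 0.886, 0.973, 0.968 and 0.926 over spots, and Col4a1 and Col4a2 0.647, 0.670, 0.880 and 0.762. Col6a1 and Col6a2 had 0.723, 0.823, 0.881 and 0.783. Over all pairs of members the median was 0.228, 0.150, 0.166 and 0.156. High values were not particular to chains of the same type. Col1a1 and Col3a1 had 0.861, 0.805, 0.957 and 0.955, and Col1a1 and Col4a1 had 0.491, 0.385, 0.825 and 0.738. Col4a5 and Col4a6, which have fewer UMIs, were at 0.270, 0.236, 0.202 and 0.359. Col1a1 and Col2a1 had 0.107 in the E13.5 section against 0.635 at E16.5; given each spot's total UMIs these were 0.0557 and 0.477.

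**Figure D4:**
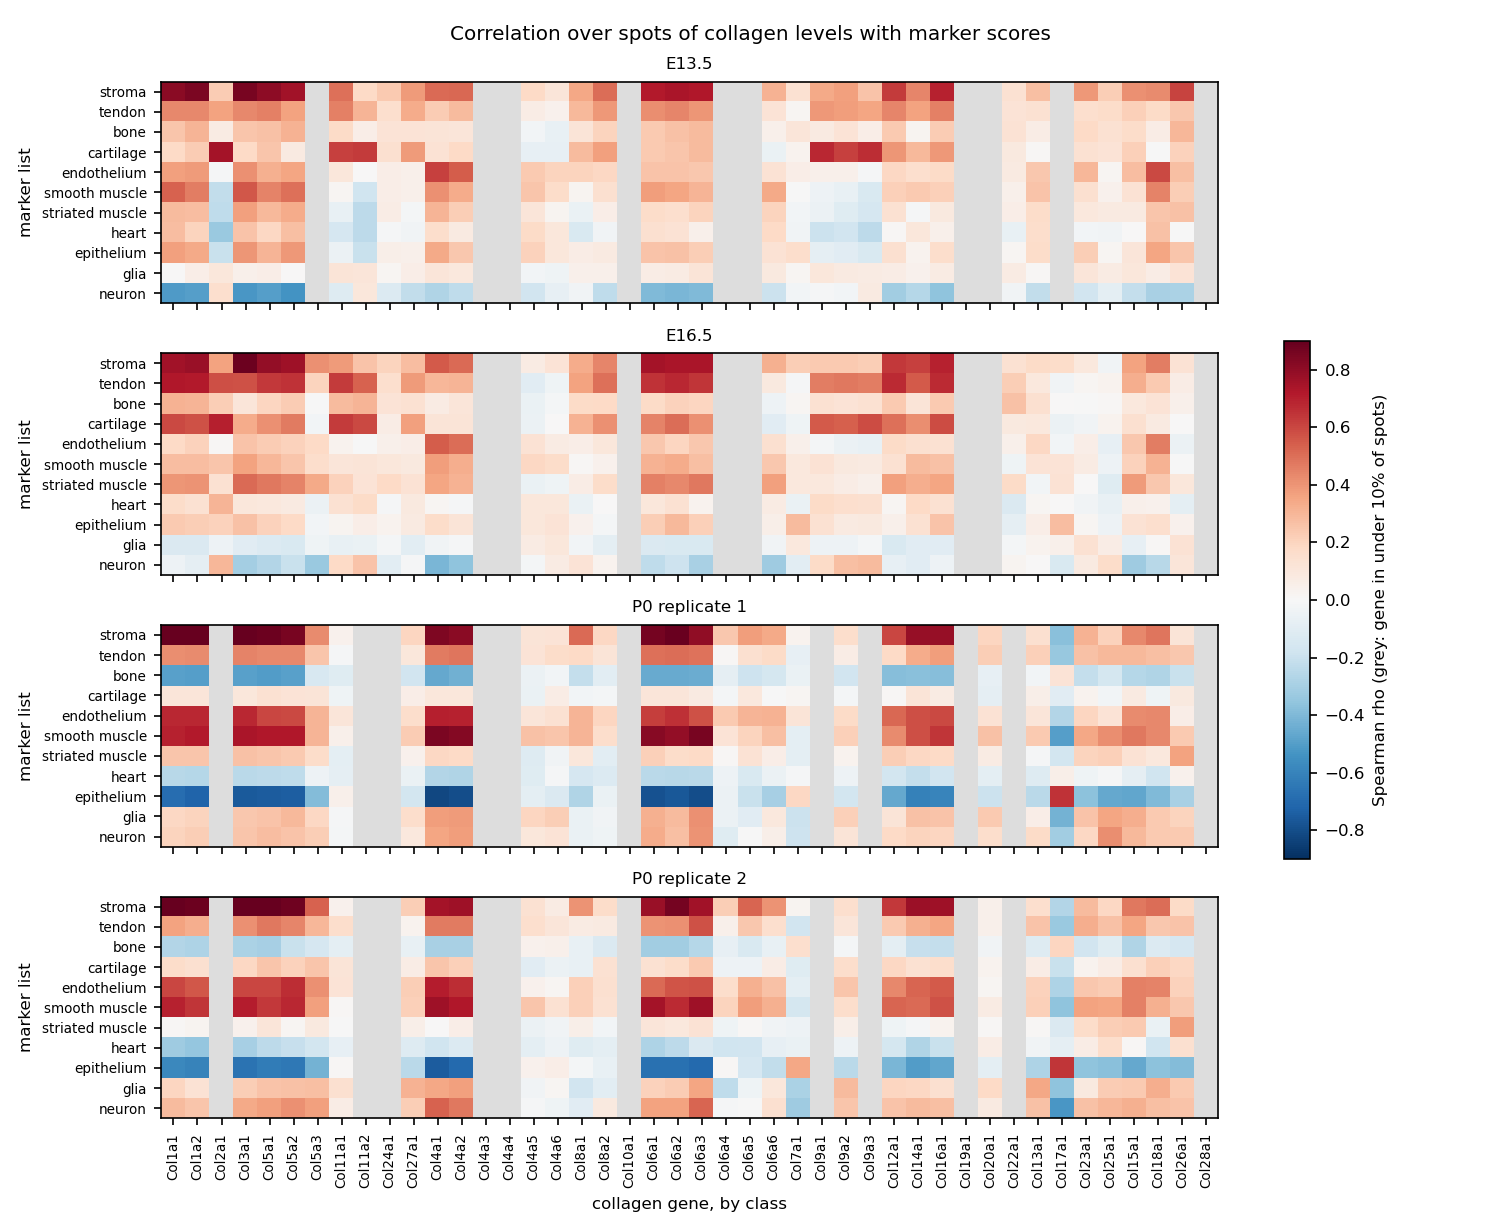
Spearman rho over spots between each collagen (columns) and 11 marker scores (rows), with a panel per section; grey marks genes in under 10% of spots. In the P0 panels most fibrillar, type IV and type VI genes are positive with stroma and smooth muscle and negative with epithelium, and Col17a1 has the opposite signs.

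The P0 sections allowed tests between regions of the esophagus. Spots in the highest 25% by score went to an epithelium-rich (84 and 64 spots in replicates 1 and 2), smooth muscle-rich (59 and 41), striated muscle-rich (61 and 48) or stroma-rich group (60 and 40). In replicates 1 and 2, 91 and 64 spots were in the highest 25% of more than 1 list. Each went to the list in which its rank was highest, so the groups overlap in marker content. Counts were summed by section and region and fitted with edgeR's quasi-likelihood test, blocking on section, and p-values were adjusted by Benjamini-Hochberg over 11848 genes. Of the 44 collagens, 34 passed the filter on low counts; Col2a1, Col11a2, Col4a3, Col4a4, Col10a1, Col9a1, Col9a3, Col19a1, Col22a1 and Col28a1 did not. Collagens made up 0.399% and 0.395% of UMIs in epithelium-rich spots, 1.84% and 2.08% in smooth muscle-rich, 1.21% and 1.27% in striated muscle-rich, and 3.11% and 3.11% in stroma-rich spots. These 4 ranges did not overlap.

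Against muscle-rich spots (the mean of both muscle groups), epithelium-rich spots were lower in most collagens and higher in Col17a1. Col17a1 was at 303 and 337 CPM in epithelium-rich, 49.7 and 161 in smooth muscle-rich, and 222 and 181 in striated muscle-rich spots. Spots in none of the 4 groups, which are outside this comparison, held it at 288 and 385 CPM. In replicate 2 that was above the epithelium-rich value. The epithelium-rich values were above all 4 muscle-rich values, and the difference was 1.45 ± 0.22 (log2, SE; edgeR adjusted p = 3.52e-05). Of the 34 members tested, 1 was higher in epithelium and 28 were lower, where 23.4% of all genes tested were higher and 23.7% lower (47.2% in either direction). The median over the collagens tested was −1.98 (log2), beside −0.0077 over all genes.

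Col3a1 was at 1162 and 1104 CPM in epithelium-rich, 5651 and 6494 in smooth muscle-rich, and 3853 and 3804 in striated muscle-rich spots. Every epithelium-rich value was below every muscle-rich value, with a difference of −1.82 ± 0.12 (adjusted p = 1.26e-08). In the fibrillar class 8 of 9 tested members were lower: beside Col3a1 these were Col24a1 (−4.36), Col5a3 (−2.47), Col27a1 (−2.27), Col5a2 (−2.01), Col5a1 (−1.94), Col1a1 (−1.79) and Col1a2 (−1.77). The exception was Col11a1, at −0.09 ± 0.22. Col24a1 had 1 and 0 UMIs in epithelium-rich spots, so the size of its difference rests on a level near 0 and is uncertain. All 5 tested FACIT genes were lower, from −2.58 for Col9a2, through Col14a1 (−2.06), Col12a1 (−1.80) and Col16a1 (−1.62), to −1.55 for Col20a1.

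The type IV genes were split by chain pair. Col4a1 was at 165.3 and 136 CPM in epithelium-rich against 1150 and 1138 in smooth muscle-rich and 591 and 716 in striated muscle-rich spots, a difference of −2.26 ± 0.16 (adjusted p = 1.57e-08), and Col4a2 differed by −2.24. Col4a5 was at 110 and 97.4 CPM in epithelium-rich, 189 and 185 in smooth muscle-rich, and 97.5 and 93.6 in striated muscle-rich spots, and its values in epithelium and striated muscle overlapped. Col4a5 (−0.10 ± 0.13, edgeR adjusted p = 0.583) and Col4a6 (−0.27 ± 0.17, edgeR adjusted p = 0.224) did not pass. Col4a6 passed, as lower in epithelium, with regions from 2 marker lists (epithelium, and both muscle lists joined). The difference between the chain pairs was not tested.

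All 6 type VI genes were lower in epithelium, from Col6a3 (−2.49 ± 0.22), Col6a1 (−2.24), Col6a6 (−2.23) and Col6a2 (−2.18) to Col6a5 (−1.28) and Col6a4 (−1.06, adjusted p = 0.0439). Col6a4 lost its call under 4 settings: a DESeq2 Wald test, no replicate block, the highest 15% of spots and regions from 2 marker lists. Of the multiplexins Col15a1 differed by −2.24 and Col18a1 by −0.57, and of type VIII Col8a1 by −0.65, while Col8a2 did not pass (−0.61, adjusted p = 0.214). Of the transmembrane members 3 were lower too: Col25a1, found in neurons and muscle, had 0.573 and 1.43 CPM in epithelium-rich against 51.3 and 45.4 in smooth muscle-rich spots (−4.65 ± 0.40), Col23a1 differed by −3.14 and Col13a1 by −2.62. Col26a1 differed by −3.89. In epithelium-rich spots Col25a1 had 2 and 4 UMIs, Col26a1 5 and 3, and Col13a1 9 and 2, so the sizes of these differences are uncertain. Such members could pass the low-count filter only through groups where they are higher, and they are among the 28 counted as lower. With no filter on low counts, the 29 members called in either direction still passed with the same sign. Col7a1 was at 48.4 and 52.8 CPM in epithelium-rich, 24.5 and 72.4 in smooth muscle-rich, and 42.1 and 40.2 in striated muscle-rich spots. These overlapped, and its difference of 0.50 ± 0.21 did not pass (edgeR adjusted p = 0.0605), though it passed under 4 other settings. Spots in none of the 4 groups held Col7a1 at 68.9 and 71.6 CPM, above its epithelium-rich values.

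Stroma-rich spots were higher than epithelium-rich spots in 29 of 34 tested collagens and lower in 1, where 21.4% of all genes were higher and 20% lower (41.4% either way); the collagen median was 2.57, beside −0.0031 over all genes. Col1a1 was at 6042 and 6229 CPM in stroma-rich and 614 and 667 in epithelium-rich spots, with no overlap, and rose by 2.94 ± 0.15 (adjusted p = 2.13e-09). The fibrillar genes that passed ranged from 2.60 (Col27a1) to 4.50 (Col24a1). Col24a1 rests on 4 and 7 UMIs in stroma-rich and 1 and 0 in epithelium-rich spots. Col3a1 was at 2.93, Col1a2 at 2.86, Col5a1 at 2.90, Col5a2 at 2.96 and Col5a3 at 3.24. All 6 type VI genes were higher, among them Col6a6 (3.34), Col6a2 (3.01), Col6a1 (2.86), Col6a3 (2.84), Col6a5 (2.52) and Col6a4 (2.32). The FACIT genes Col14a1 (3.24), Col12a1 (2.52), Col16a1 (2.5), Col9a2 (2.13) and Col20a1 (1.6) were higher as well.

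Among basement membrane genes Col4a1 (2.71), Col4a2 (2.65), Col15a1 (2.17) and Col18a1 (0.90) were higher in stroma, beside endothelial markers at 719 and 1084 CPM in stroma-rich and 60.5 and 42.1 in epithelium-rich spots, whose part was not tested. Col8a1 (1.67), Col8a2 (1.88), Col25a1 (2.90), Col13a1 (2.63), Col23a1 (2.55) and Col26a1 (2.05) complete the list. Of these, Col25a1, Col13a1 and Col26a1 again rest on the few UMIs in epithelium-rich spots given above. Col17a1, at 132 and 158 CPM in stroma-rich spots, was the member that was lower (−1.46 ± 0.27, adjusted p = 0.000313). Col4a5, Col4a6, Col11a1 and Col7a1 did not pass, with differences from −0.24 to 0.20.

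Stroma-rich spots were higher than muscle-rich spots in 14 of 34 tested collagens and lower in 2, where 3.81% of all genes were higher and 1.79% lower (5.6% either way); the collagen median was 0.45, beside 0.00081 over all genes. Col3a1 was at 10809 and 10626 CPM in stroma-rich spots, above all 4 muscle-rich values, a difference of 1.11 ± 0.11 (adjusted p = 4.84e-05). The other fibrillar genes that passed were Col1a1 (1.16), Col1a2 (1.09), Col5a1 (0.96), Col5a2 (0.95) and Col5a3 (0.77). Type VI contributed Col6a5 (1.24), Col6a6 (1.11), Col6a2 (0.83) and Col6a1 (0.63), the FACIT class Col14a1 (1.18), Col16a1 (0.88) and Col12a1 (0.72), and type VIII Col8a1 (1.02). Of these, Col5a3, Col12a1 and Col6a6 did not pass in a DESeq2 Wald test, and Col5a3 also not without the block or without muscle-rich spots of high epithelial score.

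None of the 4 tested type IV genes passed between stroma and muscle, with differences from −0.34 (Col4a5) to 0.45 (Col4a1); Col4a1 passed with no filter on low counts. Col25a1 was at 11.6 and 6.59 CPM in stroma-rich, 51.3 and 45.4 in smooth muscle-rich, and 17.7 and 21.3 in striated muscle-rich spots. Its stroma-rich values were below all muscle-rich values, a difference of −1.75 ± 0.35 (adjusted p = 0.00604). Col26a1 differed by −1.85 ± 0.47 (adjusted p = 0.0273). Neither passed in a DESeq2 Wald test. Stroma-rich spots still held smooth muscle markers at 11726 and 6083 CPM, so the groups compared share muscle.

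Striated muscle-rich spots were lower than smooth muscle-rich spots in 14 of 34 tested collagens and higher in 2, where 8.14% of all genes were higher and 5.87% lower (14% either way); the collagen median was −0.56, beside −0.0041 over all genes. Col4a5 was at 97.5 and 93.6 CPM in striated and 189 and 185 in smooth muscle-rich spots. These did not overlap, and the difference was −0.89 ± 0.16 (log2; adjusted p = 0.00124). All 4 tested type IV genes were lower, with Col4a6 at −0.92, Col4a1 at −0.72 and Col4a2 at −0.70. Col6a3 (−0.96), Col6a1 (−0.73), Col6a2 (−0.67), Col5a2 (−0.73), Col3a1 (−0.58), Col1a2 (−0.56), Col1a1 (−0.55), Col5a1 (−0.50), Col14a1 (−0.54) and Col25a1 (−1.25) were lower too. Col26a1 was at 26.2 and 50.9 CPM in striated and 12.6 and 18.4 in smooth muscle-rich spots and was higher by 1.35 ± 0.38 (adjusted p = 0.0227). Col17a1 was higher by 1.17 ± 0.29 (adjusted p = 0.0107), with 2.15 in replicate 1 and 0.17 in replicate 2.

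The striated muscle-rich spots also held more epithelium: epithelial markers summed to 9154 and 5827 CPM there, against 2168 and 3550 in smooth muscle-rich spots, and 27 of 61 and 13 of 48 striated muscle-rich spots scored above their section's epithelial median. Without muscle-rich spots above that median, a setting added after the data were seen, 3 members were lower and 1 higher: Col4a5, Col4a6, Col6a3 and Col26a1 still passed and Col17a1 did not (0.38, adjusted p = 0.555). With the highest 15% of spots, 2 were lower and 2 higher, and Col4a5, Col4a6, Col17a1 and Col26a1 still passed. In a DESeq2 Wald test 9 were lower and 1 higher. Col4a5 was the member that passed under each of these settings and without the block.

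**Figure D5:**
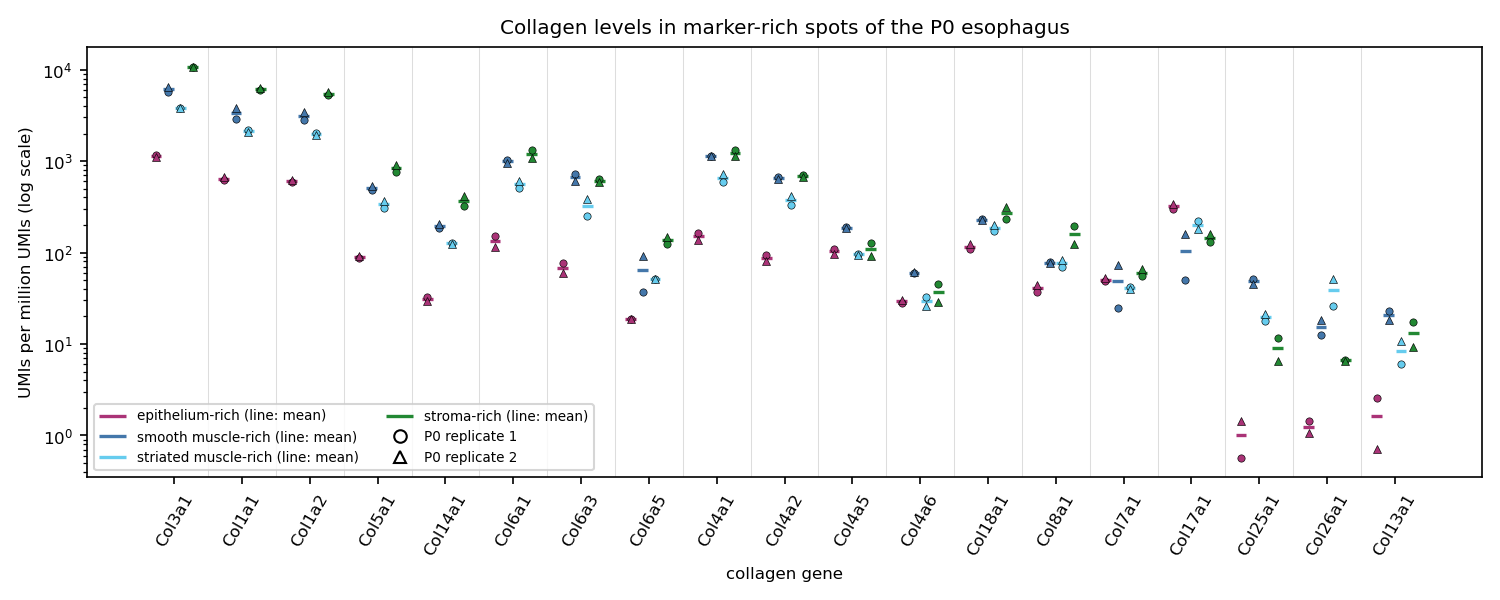
Level of 19 collagens in the 4 groups of marker-rich spots of the P0 esophagus, in CPM on a log scale; circles are replicate 1, triangles replicate 2 and lines their mean. Among these groups Col1a1 and Col3a1 are highest in stroma-rich and lowest in epithelium-rich spots, and Col6a3 has its highest mean in smooth muscle-rich spots. Col17a1 is highest in epithelium-rich spots, and Col4a5 and Col4a6 in smooth muscle-rich spots. Spots in none of the 4 groups, not drawn, held Col17a1 at 288 and 385 CPM.

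Genes that make, cut, crosslink, bind or degrade collagen were followed as a list of 53, of which 41 passed the filter. Against muscle, epithelium-rich spots were lower in 34 of 41 and higher in 3, beside 23.7% and 23.4% of all genes. The 8 largest differences were all lower: Adamts14 (a procollagen peptidase, −3.08), Ddr2 (a collagen receptor, −2.96), Itga1 (the alpha chain of a collagen-binding integrin, −2.93), the lysyl oxidase-like Loxl3 (−2.78), Pcolce2 (a propeptidase enhancer, −2.76), the protease inhibitor Timp3 (−2.47), Loxl1 (−2.21) and the collagen-degrading cathepsin Ctsk (−2.19). The 3 higher genes were Mia2, of collagen export (1.57), the receptor Ddr1 (0.78) and the prolyl hydroxylase subunit P4hb (0.51).

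Against epithelium, stroma-rich spots were higher in 33 of the 41 and lower in 2, Mia2 (−1.76) and Ddr1 (−1.07), beside 21.4% and 20% of all genes. Both collagen receptors of the Ddr family thus passed on opposite sides, with Ddr2 at 3.22. Loxl3 (3.59), Adamts14 (3.53), Loxl1 (3.01), Itga1 (3.0), Adamts2 (2.98), Ctsk (2.90) and Lox, which crosslinks collagen (2.86), were the others with the largest differences. Against muscle, 16 were higher in stroma-rich spots and 0 lower, beside 3.81% and 1.79% of all genes; a DESeq2 Wald test gave 9 higher and 0 lower of 47 tested. The 16 were led by the procollagen peptidase Adamts2 (1.34), Lox (1.23), Pcolce (0.97), P4ha2 (0.90), Fkbp14 (0.90), the collagen-binding Sparc (0.89), the gelatinase Mmp2 (0.82) and Loxl1 (0.80). Striated muscle-rich spots were lower than smooth in 17 and higher in 1, Ddr1 (0.72), beside 5.87% and 8.14% of all genes. The lower genes included Itga1 (−1.33), Loxl3 (−1.22), Timp3 (−1.16), Ddr2 (−1.16), Itgb1 (−0.88), Ctsk (−0.81) and Plod3 (−0.76). That count of 17 was 5 in a DESeq2 Wald test, where 0 were higher, 4 with the highest 15% of spots and 5 without the muscle-rich spots of high epithelial score.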

How the data were processed

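Per the file headers, the authors deposited Space Ranger 2.0.0 matrices of raw UMI counts per gene and spot for 32285 genes, and per the labels the reads were aligned to mm10. Spots with fewer than 500 UMIs were left out. Barcodes mark slide positions, so sections share 24 to 2542 of them in pairs. Mitochondrial genes held 2.52% to 5.72% and the blood list 0.0777% to 5.06% of UMIs. CPM carry exact Poisson 95% intervals, which cover counting error only. For a count of 0 the upper end of the interval still lies above 0. P0 regions were sums per section, fitted in edgeR 4.0.16 (R 4.3.3; TMM, filterByExpr, section as a block, 4 residual degrees of freedom) with an adjusted p threshold of 0.05. The spread of each gene also drew on all genes tested, with a median of 12.6 prior degrees of freedom. DESeq2 1.42.0 was an alternative. The fit was tested on simulated data. Python 3.11.15, numpy 2.4.6, pandas 2.3.3 and scipy 1.17.1 gave levels and correlations.

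Members, classes, marker lists and the pathway list were chosen with earlier results of these data known. In each P0 comparison the members past the threshold are named (at most 30), with the 8 pathway genes of largest difference. In each embryo region the 5 members with the highest ratio to the rest and at least 20 UMIs were ranked. The text names the leading members of regions. The limit of 0.3 on rho and the setting on epithelial score were added after the data were seen. A planned count of protein repeats was not run, and promoter sequence was used in its place.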

Additional observations from a re-analysis of the deposited data

How the results depend on the processing

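Most counts kept to within 1.5 times of their reported value, and no result reversed. Levels moved more often. Without mitochondrial and blood genes in the total, 93 section CPM values left their counting interval and 83 did not. For the leading members of embryo regions, 57 CPM values left it and 63 did not with the highest 1% of spots. With 5% of spots these were 68 and 52. Of the 34 collagens tested, 1 was higher in epithelium than in muscle. The count was 2, with Col7a1 gained, with no low-count filter, with the highest 15% of spots and with regions from 2 marker lists. It was also 2, again with Col7a1, with muscle-rich spots of low epithelial score (added after the data were seen). Col4a6 also passed with regions from 2 marker lists, but as lower in epithelium. Between epithelium and muscle Col20a1 and Col8a1, and between stroma and epithelium Col20a1 and Col26a1, lost their calls with DESeq2 Wald. The 2 members higher in muscle than in stroma became 0 with a DESeq2 Wald test and 1 with no replicate block. The 2 higher in striated muscle became 1 with DESeq2 Wald, 1 with no replicate block and 1 with muscle spots of low epithelial score; the 14 higher in smooth muscle became 9, 2 (highest 15%) and 3 (low epithelial score). The cause was not tested. The block is the section itself, as each section gives every region. Leaving out a section gives log2 values with no test.

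All genes called between epithelium and muscle went from 5591 to 3640 with DESeq2 Wald, between stroma and epithelium from 4909 to 3201, between stroma and muscle from 663 to 267 (995 with no filter, 1014 with low epithelial score), and between striated and smooth muscle from 1660 to 820 (764 with the highest 15%, 660 with low epithelial score).

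Counts of members by closest list moved for the smaller lists. With Pearson correlation, smooth muscle had 1 (from 2) at E13.5; at E16.5 smooth muscle had 2 (from 1), striated muscle 1 (from 2), bone 3 (from 1), glia 0 (from 2) and blood 0 (from 1); neuron had 0 (from 1) in P0 replicate 1; tendon 0, liver 0 and immune 2 (each from 1) in replicate 2. Given depth, smooth muscle had 2, glia 0 and blood 0 at E16.5, and neuron 0 in P0 replicate 1. With rho of at least 0.3 (added after the data were seen), E13.5 had epithelium 0 and smooth muscle 1; E16.5 had epithelium, smooth muscle, bone, glia, neuron and blood 0 and endothelium 1; P0 replicate 1 had epithelium 1, smooth muscle 5 and endothelium 0; replicate 2 had tendon 0, glia 2 and immune 0. The planned count of protein repeats was not run.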

Other observations

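The ratio of Col1a1 to Col1a2 UMIs was 0.786 at E13.5, 1.0 at E16.5, and 1.10 and 1.08 in the P0 sections. In striated muscle-rich spots it was 0.719 and 0.774 at the embryonic stages, and in bone-rich spots 0.814 and 1.11. The ratio of Col6a3 to Col6a1 was 1.40 and 1.56 in the embryo sections and 0.551 and 0.557 in P0. Col28a1 had 9 of its 34 UMIs at E16.5 in glia-rich spots, 17.0 times the rest, and was singled out after its values were seen.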
